A study of Mus musculus with 20 samples.

Results

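The nuclear genes for the subunits of oxidative phosphorylation were read in the quadriceps of old mice, complex by complex. A gene was a member when its symbol named a subunit of complex I (Nduf), complex III (Uqcr, Cyc1, Cycs), complex IV (Cox4 to Cox8) or complex V (Atp5) and it had at least 10 counts in 10 or more muscles. Assembly factors (Ndufaf) and pseudogene names were left out. The rule used no treatment difference. It gave 78 of the 55416 genes listed: 37 of complex I, 10 of complex III, 14 of complex IV and 17 of complex V. Of 95 symbols with the right letters, 8 were pseudogene names and 9 had too few counts, among them Cox4i2, Cox6b2, Cox7b2 and Cox8c. The rule sorts by symbol, so Ndufa4, now known as a subunit of complex IV, is counted under complex I. Likewise Cycs, a mobile carrier and not a structural subunit, is counted under complex III, and Atp5s, which is not a structural subunit either, under complex V.

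All 20 muscles came from male wild-type C57BL/6J mice aged 26 to 28 months, fasted for 4 h. A single intramuscular injection of 50 µL was given, and the injected quadriceps was taken 3 h later. The 10 Control mice received saline (0.9%) and the 10 Secretome mice a cell-free product made from medium conditioned by human pluripotent stem cells. Reads counted on genes ranged from 13286983 to 22987237 per muscle. The library numbers in the labels divide the muscles: libraries 1 to 5 were Control 1 to 5, libraries 6 to 15 held Control 6 to 10 with Secretome 1 to 5, and libraries 16 to 20 were Secretome 6 to 10. The titin gene Ttn took 7.02% to 11.03% of the counts in libraries 1 to 5, 16.4% to 21.1% in libraries 6 to 15 and 14.2% to 14.7% in libraries 16 to 20. Outside libraries 6 to 15 the library number and the treatment cannot be told apart. Member counts and complex medians are therefore given over all 20 muscles and within libraries 6 to 15, where there were 5 muscles of each treatment. For single genes and isoform ratios, the value within libraries 6 to 15 is given for some only. No source used here names a batch. In bulk muscle, fewer cells of a type and less RNA per cell cannot be told apart.

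Oxidative phosphorylation passes electrons from NADH and succinate along the inner mitochondrial membrane to oxygen and uses the resulting proton gradient to make ATP. Complex I takes electrons from NADH, complex III hands them to cytochrome c, complex IV gives them to oxygen, and complex V is the ATP synthase. Most subunits are encoded in the nucleus and the rest in mitochondrial DNA. Several subunits of complex IV and the c subunit of ATP synthase have more than 1 nuclear gene, with forms that are typical of heart and skeletal muscle.

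The promoters of 4 genes introduce members on which the results below turn. Cox6a1 had the largest fold change of all members, Cycs encodes the electron carrier cytochrome c, and Atp5g1 and Atp5g3 form the isoform pair with the smallest p. Each line is the 250 bases upstream of the RefSeq transcript start, 5′ to 3′ on the gene's strand, in build GRCm38.p6, which is not the build of the counts. Capitals mark the letters CGCATGCG, the core bound by NRF1, a factor known for activating respiratory genes, or TCAAGGTCA, a site of the oestrogen-related receptor alpha, on either strand.
Cox6a1, chr5:115348959-115349208, minus strand: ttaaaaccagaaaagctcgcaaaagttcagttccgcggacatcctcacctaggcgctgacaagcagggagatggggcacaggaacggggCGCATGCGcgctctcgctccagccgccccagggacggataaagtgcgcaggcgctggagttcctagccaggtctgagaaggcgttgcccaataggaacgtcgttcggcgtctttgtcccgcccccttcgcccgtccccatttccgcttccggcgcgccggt
Cycs, chr6:50566570-50566819, minus strand: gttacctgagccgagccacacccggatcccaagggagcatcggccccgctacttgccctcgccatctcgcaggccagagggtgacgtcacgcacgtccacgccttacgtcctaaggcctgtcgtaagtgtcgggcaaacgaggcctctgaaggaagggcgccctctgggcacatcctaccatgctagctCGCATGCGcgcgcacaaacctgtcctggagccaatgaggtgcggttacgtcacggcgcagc
Atp5g1, chr11:96075632-96075881, minus strand, no match: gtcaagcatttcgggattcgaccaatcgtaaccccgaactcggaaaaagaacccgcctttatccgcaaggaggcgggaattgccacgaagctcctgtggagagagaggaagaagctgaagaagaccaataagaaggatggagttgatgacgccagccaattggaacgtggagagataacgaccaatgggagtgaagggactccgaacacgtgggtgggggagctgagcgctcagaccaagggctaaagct
Atp5g3, chr2:73911327-73911576, minus strand: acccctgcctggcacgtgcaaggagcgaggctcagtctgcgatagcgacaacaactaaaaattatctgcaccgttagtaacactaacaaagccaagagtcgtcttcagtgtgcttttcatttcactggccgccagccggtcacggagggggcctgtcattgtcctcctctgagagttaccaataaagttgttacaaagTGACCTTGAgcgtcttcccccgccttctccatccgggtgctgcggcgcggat
A RefSeq window was matched for 62 of the 78 members. The NRF1 letters lay in 8 of these 62 (12.9%) and in 472 of 27025 genes with a window (1.75%), both strands searched. They were found for 4 of 13 members of complex V (30.8%), 2 of 32 of complex I (Ndufa8 and Ndufa11), and 1 each of complexes III (Cycs) and IV (Cox6a1). CCGGAAGT, an ETS site of the kind bound by GABPA, lay in 3 of 62 windows (4.84%) against 3.23% of all genes. AAGATGGC, the core of YY1, and the receptor letters lay in 1 window each (1.61%), against 1.83% and 0.422% of all genes. The search looked for exact letters only, and none of the 4 motifs overlaps another in its letters.

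Levels of the members differed far more between genes than between treatments. Per kilobase of merged exon, which allows genes to be compared, the highest was Atp5b, the catalytic beta subunit of ATP synthase, at 742 CPM (counts scaled to a common library size) per kb over all muscles. Its partner Atp5a1, the alpha subunit, stood at 394 although the F1 head holds both in equal number. At the other end, Ndufa4l2, a hypoxia-linked relative of Ndufa4, reached 2.52 and Atp5s 4.71. Complex IV spread from Cox8b at 581 and Cox6a2 at 471, both muscle forms, down to Cox8a at 25.1 and Cox6a1 at 17.1, their widely expressed counterparts. Complex III ran from Uqcr10 at 257, a small subunit, to Cycs at 33.9. Within complex I, Ndufa4 stood at 248 and Ndufb9 at 233, a difference smaller than their spread over muscles. Ndufv1, which binds NADH, stood at 102, Ndufs1, the largest subunit of the electron input arm, at 91.7, and the membrane-arm subunit Ndufb8 at 58.7. Merged length counts the exons of every transcript in the basic set of the annotation, and was longest for Atp5g1 (4912 bp, at 50.5) and Ndufb2 (4375 bp, at 10.1).

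**Figure D1:**
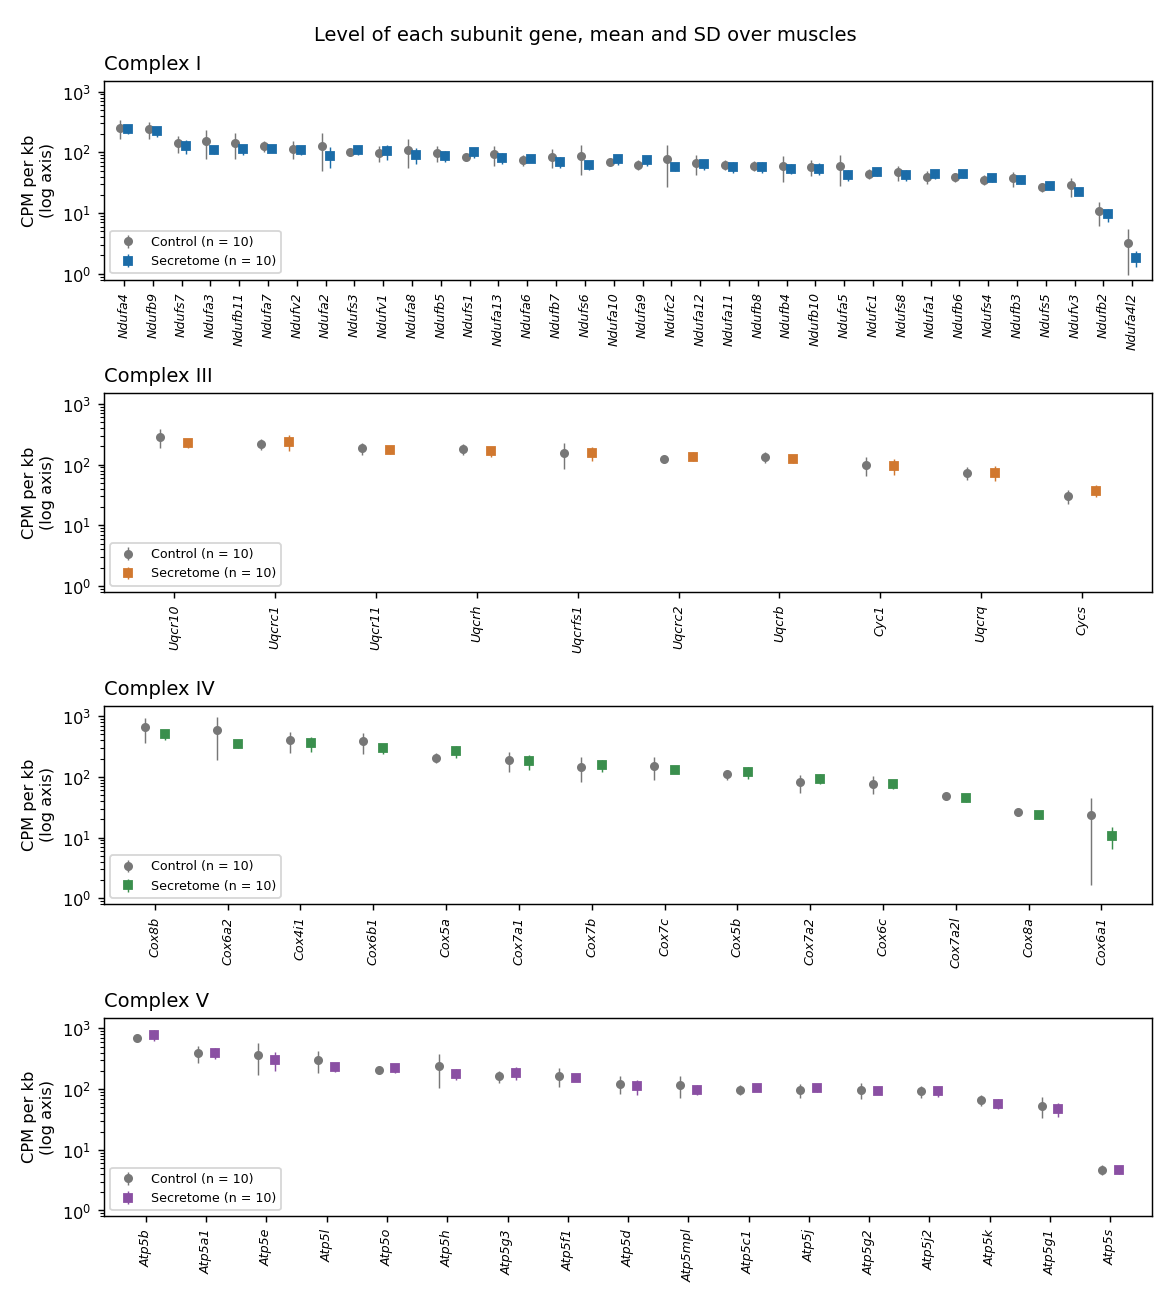
Level of 77 members in CPM per kilobase (log axis), as mean and SD over 10 Control (grey circles) and 10 Secretome muscles (coloured squares), by complex and in falling order. The muscle isoforms Cox8b and Cox6a2 lead complex IV and Atp5b leads complex V, and the bars of the 2 treatments overlap for most genes.

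No member passed a 5% false discovery rate in secretome-treated compared to control muscle, in a background of 1 gene in 14471 (0.00691%), by edgeR's quasi-likelihood test over all 20 muscles. The smallest adjusted p of a member was 0.193. At an unadjusted p under 0.05, 3 members were higher (3.85%, against 6.52% of all genes tested) and 10 lower (12.8%, against 9.21%). DESeq2 also gave 0 members at 5%, where 216 of 32454 genes with a count passed (0.666%), and 4 members higher and 12 lower at an unadjusted p under 0.05 (3.83% and 5.42% of genes). In edgeR, a term for the 3 library ranges left 0 members higher and 0 lower (2.43% and 3.34% of genes), and a replicate block left 3 and 3 (7.22% and 6.99%). The 3 higher were Cox5a, Ndufs1 and Ndufa9. The 10 lower were Cox6a1, Cox6a2, Cox6b1, Ndufa4l2, Ndufs6, Ndufa3, Ndufa5, Ndufv3, Uqcr10 and Atp5l. By complex, 2 and 5 of 37 members of complex I were higher and lower, 0 and 1 of 10 in complex III, 1 and 3 of 14 in complex IV, and 0 and 1 of 17 in complex V. The groups overlapped for each of the 78 members.

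The median log2 fold change was -0.12 for complex I, -0.03 for complex III, -0.14 for complex IV and -0.05 for complex V, beside -0.03 for all genes tested. Of the 78 members, 26 had a positive and 52 a negative log2 fold change. The spread of the complex scores between muscles of a group, 0.21 to 0.27 on the log2 scale, was larger than each of these medians. A score here is the mean, over a complex, of log2 CPM minus the gene's mean. With Control 2 and Control 3 both left out, a choice made after their values were seen, the medians became 0.03, 0.08, -0.01 and 0.02, with 1 member higher and 0 lower at an unadjusted p under 0.05 (3.89% and 4.51% of 14664 genes, median -0.01), and 0 members past 5% (0.0136% of genes). Removing each library's trends on transcript length and GC content gave medians of 0.01, 0.07, 0.01 and 0.03, with 43 members positive, 2 higher and 5 lower at an unadjusted p under 0.05 (5.76% and 8.23% of genes).

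Within libraries 6 to 15, 0 of 78 members passed 5%, as did 0 of 14469 genes (0.0%). At an unadjusted p under 0.05 there were 0 members higher and 0 lower, against 5.02% and 4.92% of the genes tested. DESeq2 gave 0 members higher and 2 lower there (2.8% and 3.13% of 29885 genes), with 0 members and 37 genes (0.124%) past 5%. The medians were -0.05 for complex I, -0.08 for complex III, -0.03 for complex IV and -0.04 for complex V, beside -0.01 for all genes. The member with the smallest p was Cyc1, the cytochrome c1 of complex III, with a log2 fold change of -0.32 (SE 0.149, unadjusted p = 0.0506, adjusted p = 0.501 by edgeR). Its CPM there was 115 to 190 in Control with a median of 159, and 87.7 to 143 in Secretome with a median of 124, so the groups overlapped. Over all 20 muscles the medians of Cyc1 stood in the other order, 127 in Control and 132 in Secretome. Cycs, the complex III member with the second smallest p there, lay in the other direction, with a log2 fold change of 0.28 (SE 0.149, unadjusted p = 0.0821). It held the same place over all 20 muscles, at 0.30 (SE 0.144, unadjusted p = 0.0515, adjusted p = 0.321 by edgeR). Cycs ran from 66.2 to 138 CPM in Control, median 93.8, and from 74.0 to 174 in Secretome, median 116, and 9 of 10 Secretome muscles lay above the Control median. In the other complexes, members with a small p within libraries 6 to 15 included Ndufv1 (-0.27, p = 0.0669), Cox7c (0.30, p = 0.0718), Cox4i1 (-0.25, p = 0.103), Atp5d (-0.24, p = 0.0787) and Atp5g1 (-0.14, p = 0.157), all log2 fold changes with unadjusted p.

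The lower members had a few high Control muscles. For 9 of the 10, the 2 highest of all 20 muscles were Control 2 and Control 3. Cox6a1, the widely expressed form of subunit VIa, ran from 5.34 to 44.9 CPM in Control with a median of 8.67, and from 2.36 to 9.73 in Secretome with a median of 5.94. Only Control 2 (44.9), Control 3 (24.6), Control 9 (13.04) and Control 4 (10.0) exceeded the highest Secretome muscle. Its log2 fold change was -1.13 (SE 0.381, unadjusted p = 0.00761, adjusted p = 0.193 by edgeR), and -0.39 (unadjusted p = 0.118) without Control 2 and Control 3. Cox6a2, the heart and muscle form of the same subunit, behaved alike in these muscles: 985 in Control 2 and 824 in Control 3, with the other Control muscles between 185 and 309. Secretome muscles held 177 to 293 CPM of it, median 241, against a Control median of 292. The log2 fold change of Cox6a2 was -0.74 (SE 0.254, unadjusted p = 0.00800), -0.19 (unadjusted p = 0.0855) without the 2 muscles, and -0.17 (unadjusted p = 0.281) within libraries 6 to 15.

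Among the members of complex I, Ndufa4l2 had the smallest p. Its level was low, 1.65 to 8.64 CPM in Control and 0.850 to 2.43 in Secretome, with medians of 2.37 and 1.74. The log2 fold change was -0.77 (SE 0.275, unadjusted p = 0.00980), and -0.39 (unadjusted p = 0.0697) without Control 2 and Control 3. Within libraries 6 to 15 the log2 fold change of Ndufa4l2 was -0.27 (unadjusted p = 0.348 by edgeR). Ndufs6, an accessory subunit of the NADH-binding arm, ran from 46.4 to 151 CPM in Control and from 42.1 to 69.2 in Secretome, with medians of 57.4 and 50.8. Its log2 fold change of -0.51 (unadjusted p = 0.0208) became -0.11 (unadjusted p = 0.315) without Control 2 and Control 3. Within libraries 6 to 15 the log2 fold change of Ndufs6 was -0.11 (unadjusted p = 0.250 by edgeR). Atp5l, the g subunit in the membrane part of ATP synthase, had 92.9 to 282 CPM in Control and 98.8 to 163 in Secretome, with medians of 144 and 122. Its log2 fold change was -0.40 (unadjusted p = 0.0298) over all 20 muscles and 0.01 (unadjusted p = 0.912) within libraries 6 to 15. Atp5h, the stalk subunit d, came next in complex V (-0.46, unadjusted p = 0.0586), and ran from 94.8 to 430 CPM in Control against 105 to 180 in Secretome. Uqcr10 was the only complex III member below 0.05, at -0.34 (unadjusted p = 0.0409), with Control muscles from 75.2 to 222 CPM and Secretome muscles from 80.1 to 126.

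The 3 higher members had their 2 highest muscles in Secretome 6 and Secretome 9, libraries 16 and 19, and Control 3 among their 2 lowest. Cox5a, a nuclear subunit that faces the matrix side of complex IV, held 94.7 to 161 CPM in Control with a median of 140, and 125 to 248 in Secretome with a median of 157. Its log2 fold change was 0.34 (SE 0.127, unadjusted p = 0.0142, adjusted p = 0.221 by edgeR), but -0.05 (unadjusted p = 0.607) within libraries 6 to 15. Ndufs1 ran from 189 to 284 CPM in Control and from 214 to 380 in Secretome, with medians of 234 and 270, and 9 of 10 Secretome muscles lay above the Control median. It had a log2 fold change of 0.26 (SE 0.107, unadjusted p = 0.0220) and was the member still below 0.05 without Control 2 and Control 3 (0.27, unadjusted p = 0.0190). Within libraries 6 to 15 its log2 fold change was 0.06 (unadjusted p = 0.564). Ndufa9, an accessory subunit near the quinone site, went from 0.24 (unadjusted p = 0.0495) to -0.09 (unadjusted p = 0.359) in the same step.

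**Figure D2:**
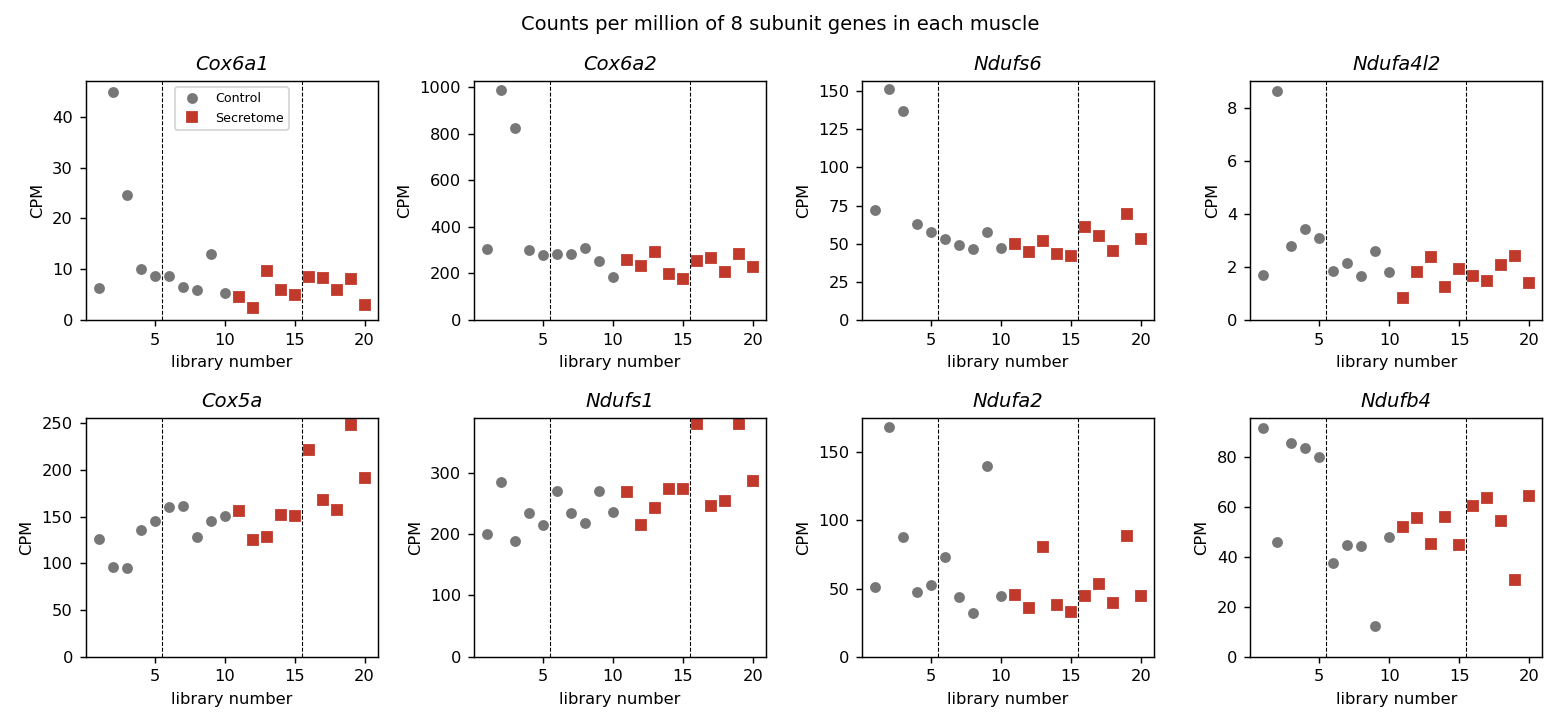
CPM of 8 members in each muscle against library number, Control as grey circles and Secretome as red squares, with dashed lines between libraries 5 and 6 and between 15 and 16. Control 2 and Control 3 stand highest for Cox6a1, Cox6a2 and Ndufs6, Secretome 6 and Secretome 9 for Cox5a and Ndufs1, and Ndufa2 and Ndufb4 part company in Control 9.

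The treatment effect inside libraries 6 to 15 was compared with the effect between libraries 1 to 5 and 16 to 20 by an interaction term. No member passed 5%, against 8 of 14471 genes (0.0553%), with the smallest adjusted p of a member at 0.161. At an unadjusted p under 0.05 the term was positive for 9 members (11.5%, against 5.59% of genes) and negative for 10 (12.8%, against 5.51%). On the log2 scale, the negative ones included Cox5a (-0.79), Ndufv1 (-0.73), Ndufa9 (-0.67), Uqcrc1 (-0.63), Atp5g3 (-0.57), Ndufs3 (-0.57), Atp5b (-0.51), Ndufa10 (-0.45) and Ndufs1 (-0.41). The positive ones were Ndufc2 (0.96), Ndufb4 (0.94), Cox6a2 (0.93), Ndufa3 (0.85), Cox7c (0.82), Cox8b (0.72), Atp5l (0.66), Ndufs6 (0.64) and Ndufv2 (0.45). Core and accessory subunits stood on both sides. Compared on their own, libraries 16 to 20 against 1 to 5 gave 7 members higher (8.97%, against 6.53% of genes) and 17 lower (21.8%, against 9.56%) at an unadjusted p under 0.05. In that comparison, 0 members and 0 of 14667 genes (0.0%) passed 5%.

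The direction of the members went with transcript length where the library ranges differed. Members are short, with a median merged exon length of 927 bp against 3191 bp for all genes tested with a length. The 26 shortest (360 to 724 bp) had a median log2 fold change of -0.23 between the outer libraries, the 26 of middle length -0.11 and the 26 longest (1251 to 4912 bp) 0.05. Cox5a, at 645 bp, went against this order, with the highest log2 fold change of all members between the outer libraries (0.72). All tested genes inside the same length limits had medians of -0.26, -0.21 and -0.06. Within libraries 6 to 15 the 3 classes of members had medians of -0.06, -0.07 and -0.05. Across the 78 genes, Spearman's rho of fold change with length was 0.40 over all 20 muscles, 0.40 between the outer libraries and 0.07 within libraries 6 to 15. With GC content of the transcript, rho was -0.29, -0.14 and -0.49 in the same order, so it was farthest from 0 within libraries 6 to 15. These points share the same libraries and are not independent replicates. The part of length and GC content in the differences was not tested beyond these values and the trend removal given above.

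**Figure D3:**
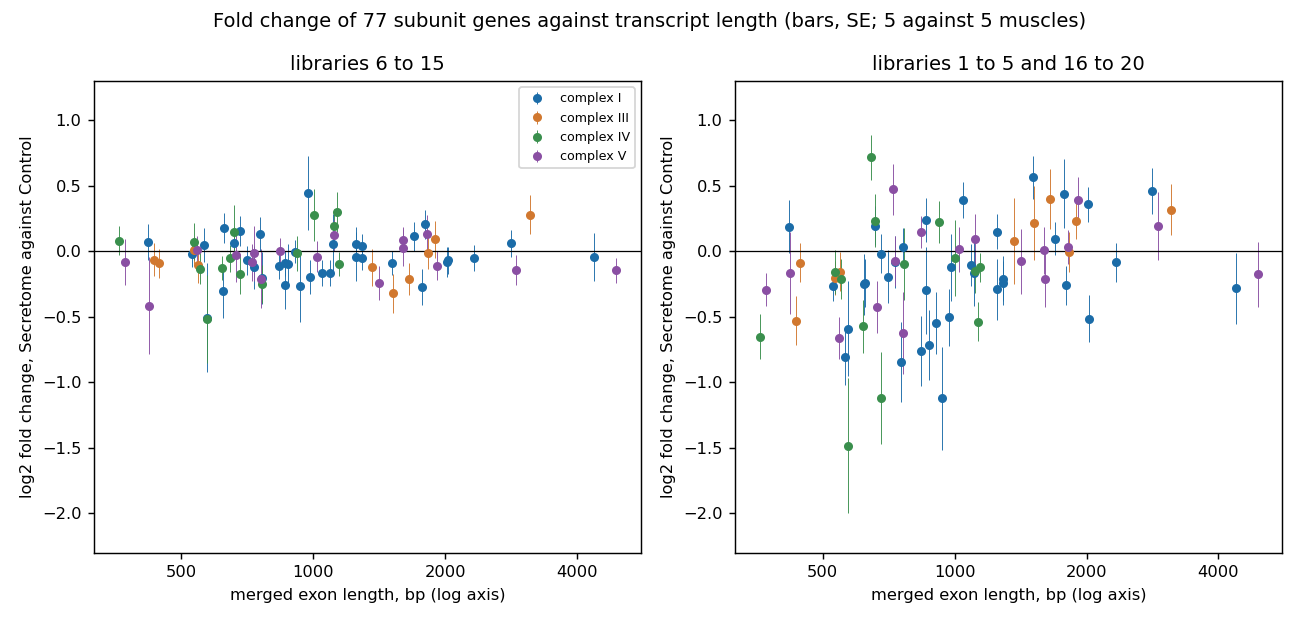
Log2 fold change of 77 members, Secretome against Control, with its SE, against merged exon length (log axis), coloured by complex. Within libraries 6 to 15 (left) the points scatter about 0 at all lengths. Between libraries 1 to 5 and 16 to 20 (right) most short genes lie below 0, and the longest lie on both sides of it.

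The isoform pairs gave ratios that do not depend on library size. Cox6a2 stood above Cox6a1 by a log2 ratio of counts of 4.28 to 5.69 in Control, median 5.04, and of 4.90 to 6.59 in Secretome, median 5.12. The difference of 0.34 was within the spread between muscles (two-sided permutation test, p = 0.173, adjusted p = 0.380 over 5 pairs). Cox7a1, the muscle form of subunit VIIa, exceeded Cox7a2 by 0.13 to 2.42 in Control, median 0.72, where Control 2 was the highest. In Secretome the log2 ratio was 0.32 to 0.95, median 0.60 (difference -0.28, permutation p = 0.228). Cox8b against Cox8a ran from 3.35 to 4.66 in Control, median 3.74, and from 3.44 to 4.46 in Secretome, median 3.78. The difference was -0.10 (permutation p = 0.591), and turned to 0.22 within libraries 6 to 15 (exact permutation p = 0.206). Cox4i2, the hypoxia-inducible form of subunit IV, had 1 to 25 counts in Control and 2 to 19 in Secretome. Per kilobase it was 0.00146 of Cox4i1 in Control and 0.00145 in Secretome (difference of log2 ratios -0.01, permutation p = 0.987).

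Atp5g1 and Atp5g3 encode the same mature c subunit of the proton-conducting ring. Their log2 ratio of counts was 0.62 to 1.64 in Control, median 1.13, and 0.64 to 1.03 in Secretome, median 0.77. All 10 Secretome muscles lay below the Control median, although the groups overlapped. The difference of -0.34 had a permutation p of 0.0126 and did not pass the correction over 5 pairs (adjusted p = 0.0630). Control 1 to 5 had 1.12 to 1.64, whereas Control 6 to 10 had 0.62 to 1.14, close to Secretome 1 to 5 with 0.64 to 1.03 and Secretome 6 to 10 with 0.66 to 0.92. Within libraries 6 to 15 the difference was -0.07 (two-sided exact permutation test, p = 0.548). The third gene of this subunit, Atp5g2, had 31.8 to 99.5 CPM in Control and 53.0 to 89.3 in Secretome, with medians of 81.2 and 69.3.

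**Figure D4:**
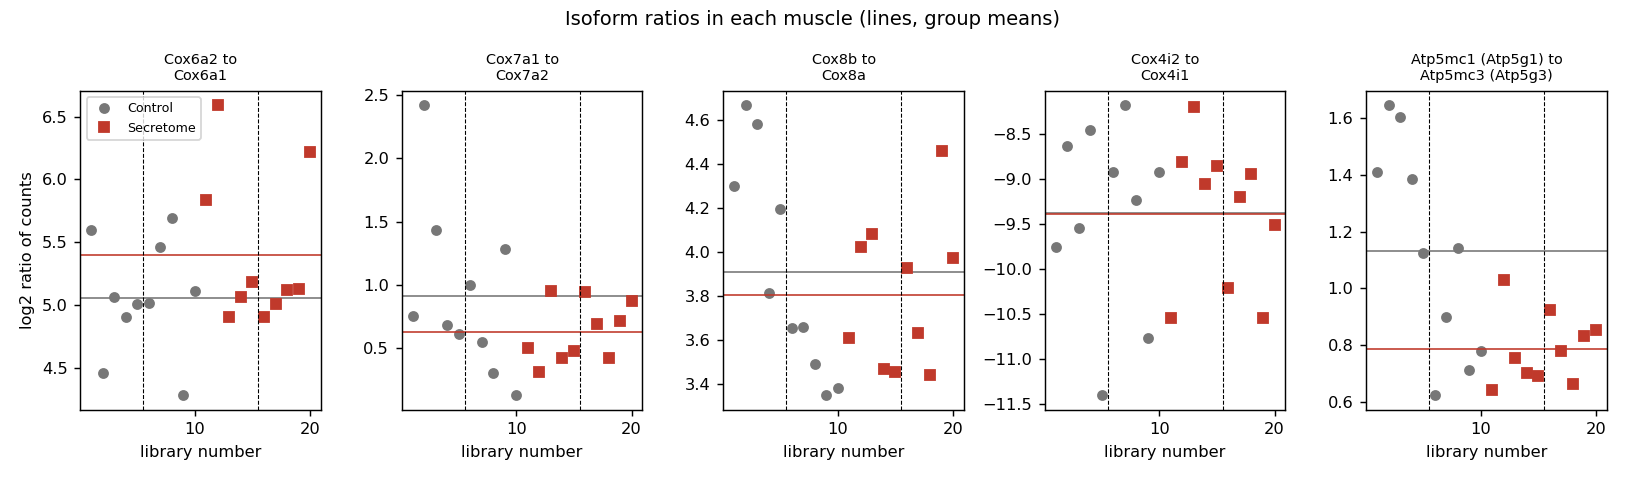
Log2 ratio of counts for 5 isoform pairs in each muscle against library number, Control as grey circles, Secretome as red squares, with lines at the group means. For Atp5mc1 (Atp5g1) to Atp5mc3 (Atp5g3), Control 1 to 5 lie between 1.12 and 1.64, above all Secretome muscles.

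Members of 1 complex did not always move together from muscle to muscle. Relative to the median member of the same muscle, 47 of 78 members in Control 2 lay more than 0.5 log2 units from their own median, 30 in Control 3 and 25 in Control 9, against 0 to 10 in the other 17 muscles. The spread over all genes was also widest in these 3 muscles, with an interquartile range of 0.90, 0.66 and 0.66 log2 units against 0.29 to 0.53 in the others. In Control 9, the accessory subunit Ndufa2 stood 1.64 log2 units up and Atp5e, the epsilon subunit, 1.43, while Ndufb4 was 2.06 down and Cox7a2 1.17 down. Ndufa2 had 140 CPM in Control 9 and 31.9 to 72.7 in the other Control muscles of libraries 6 to 15, and Ndufb4 had 12.3 against 37.4 to 47.8. Both belong to complex I. Ndufa12, another complex I accessory subunit, and Cox7b were low in the same muscle. The 8 members highest in Control 9 were above the median member in 7 of 8 cases in Control 2, 8 of 8 in Control 6, 8 of 8 in Secretome 3 and 7 of 8 in Secretome 9. The 8 lowest were below it in 7, 8, 7 and 7 of 8 cases. Over all 78 members, Spearman's rho with the Control 9 profile was 0.64, 0.80, 0.76 and 0.61 in these 4 muscles, and at most 0.19 in each of the other 15.

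**Figure D5:**
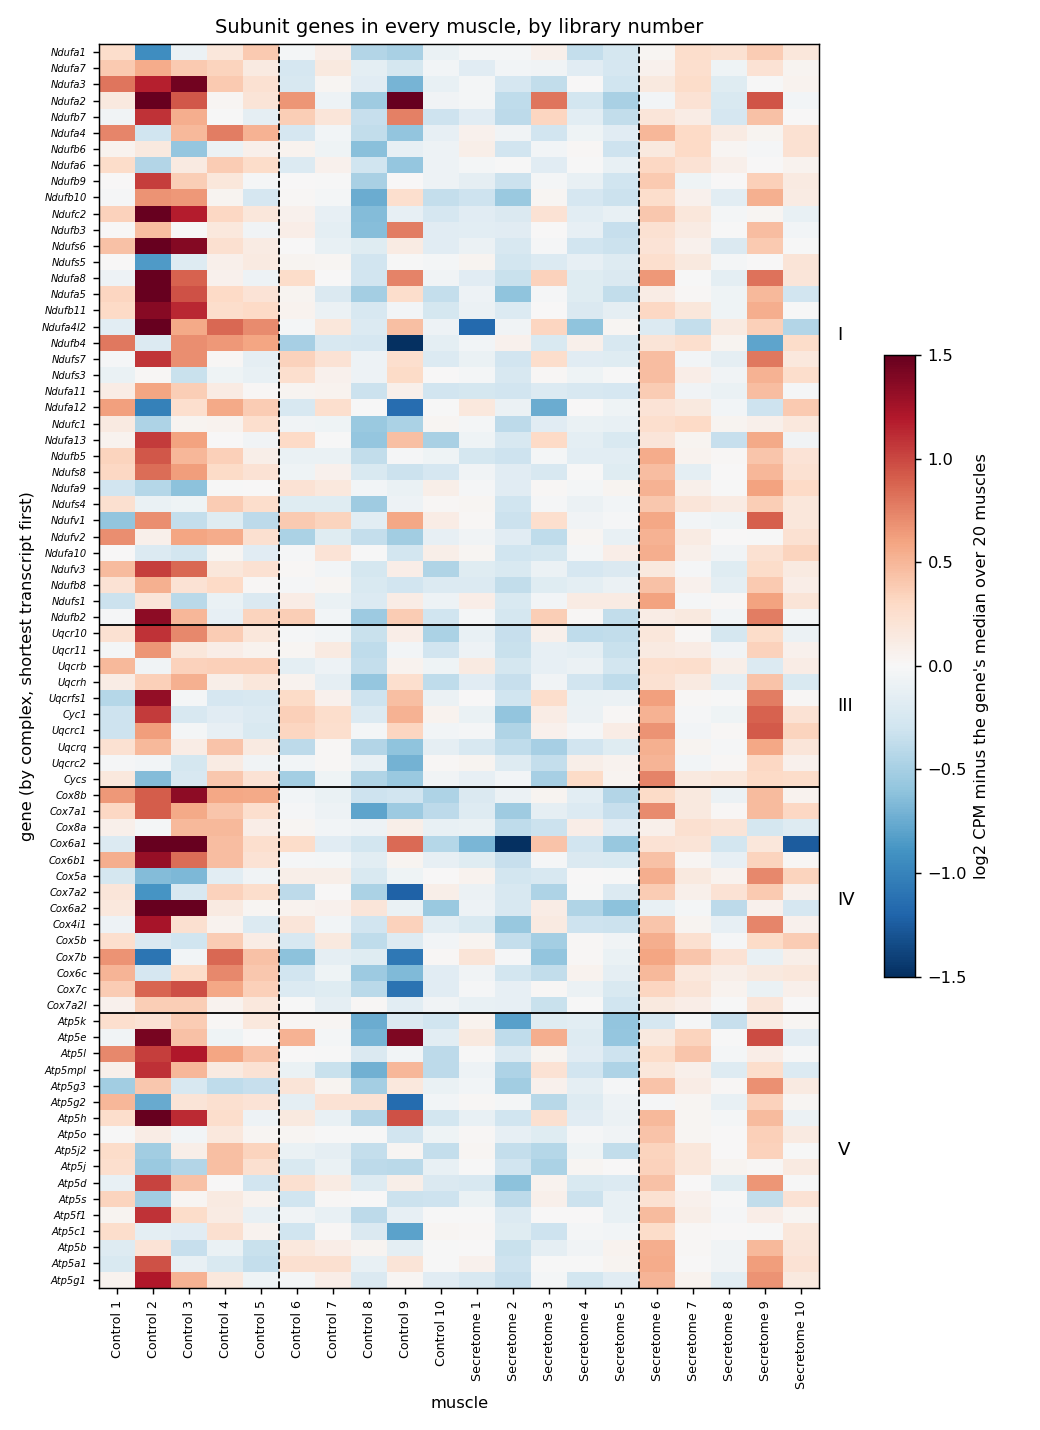
Log2 CPM of 77 members, each minus its median over 20 muscles, limited to ±1.5, with genes by complex and by rising transcript length and muscles by library number (dashed lines between ranges). Control 2 and Control 9 hold neighbouring red and blue cells inside each complex, whereas Secretome 6 is red in most rows.

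The same 5 muscles held the 5 smallest shares of counts on the mitochondrially encoded subunits. These 13 genes took 0.700% of counts in Control 9 and up to 3.603% (Control 2) in the 5 muscles, and 3.99% to 8.85% in the other 15. Whether the share and the profile have a common source was not tested. The nuclear members together took 0.831% to 2.12% of counts, highest in Control 2.

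In each list of neighbouring genes of the pathway, 0 passed 5% over all 20 muscles. Of the 13 mitochondrially encoded subunits, 0 were higher and 2 lower at an unadjusted p under 0.05, against 6.52% and 9.21% of all genes. The 2 were mt-Nd4l (-1.15, p = 0.00919) and mt-Nd6 (-0.70, p = 0.0280), both log2 fold changes. The median of the 13 was -0.18 over all 20 muscles and 0.48 within libraries 6 to 15, where 13 of 13 were positive. There, 1 passed an unadjusted p of 0.05, mt-Atp8 (0.95, p = 0.0453), against 5.02% of all genes higher. Without Control 9, the muscle with the least of these transcripts, the median within libraries 6 to 15 was 0.24, with 12 of 13 positive. Over all 20 muscles the median was 0.01 without Control 1 and 0.02 with the replicate block. With the range term, which takes the treatment difference from libraries 6 to 15, it was 0.47. In complex II, Sdha, the flavoprotein subunit, was higher (0.24, unadjusted p = 0.0483) over all 20 muscles, and Sdhb, the iron-sulfur subunit, lower within libraries 6 to 15 (-0.26, unadjusted p = 0.0378). Of 50 assembly factors tested, 7 were higher and 2 lower at an unadjusted p under 0.05 over all 20 muscles (6.52% and 9.21% of all genes). Within libraries 6 to 15, 6 were higher and 2 lower (5.02% and 4.92% of all genes). Ttc19, needed for complex III assembly, had the smallest p (0.35, unadjusted p = 0.00103, adjusted p = 0.134 by edgeR), with 34.6 to 57.6 CPM in Control and 51.5 to 72.6 in Secretome. It kept its direction within libraries 6 to 15 (0.33, unadjusted p = 0.00865). Coa5, a factor for complex IV assembly, was similar (0.34 and 0.28, unadjusted p = 0.00201 and 0.0362). Of 15 regulators of mitochondrial biogenesis, 0 were higher and 0 lower at an unadjusted p under 0.05 over all 20 muscles (6.52% and 9.21% of all genes). The smallest p belonged to Tfam, the mitochondrial transcription factor (0.20, unadjusted p = 0.0506), and Tfb2m (0.16, unadjusted p = 0.0905). Within libraries 6 to 15, 1 regulator was higher and 0 lower (5.02% and 4.92% of all genes). It was the coactivator Ppargc1a (0.53, unadjusted p = 0.0273), named after its value was seen. The median of the 15 there was -0.03, with 6 positive. Atpif1, the inhibitor of ATP synthase, lies outside the symbol rule and had a log2 fold change of -0.60 (unadjusted p = 0.00281, adjusted p = 0.158 by edgeR), and -0.22 within libraries 6 to 15. Usmg5, Ndufab1 and Ndufb1-ps, also outside the rule, had log2 fold changes of -0.32, 0.06 and 0.33 over all 20 muscles. Within libraries 6 to 15 these were 0.31, 0.10 and 0.25 (unadjusted p = 0.0102, 0.450 and 0.139 by edgeR). The interaction term of Usmg5 was 0.95 (adjusted p = 0.0566 by edgeR).

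Fibre markers were read beside these values. The 6 myofibre genes summed to 57470 to 119200 CPM, and Ucp1, which defines brown fat, had 0 counts in every muscle, which allows up to 3 counts in each. The 6 genes of slow or oxidative fibres had negative log2 fold changes within libraries 6 to 15 in 6 of 6 cases, with a median of -2.59. Of the 6, 2 were lower there at an unadjusted p under 0.05, against 4.92% of all genes. Control 8 was the highest of these muscles, and without it the median was -1.21, with 1 gene at an unadjusted p under 0.05. Over all 20 muscles the median was -0.48, 0.23 without Control 8 and -1.85 without Secretome 8. Their summed level within libraries 6 to 15 was 62.5 to 613 CPM in Control and 54.4 to 111 in Secretome. Of this sum, Atp2a2 alone held 59.6 to 217 CPM in Control and 52.4 to 80.3 in Secretome. Myh7 and Tnnt1 fell to 0.046 CPM in Control 6, and Tnni1 and Myl3 to 0 in Secretome 3, so the median there includes genes near the floor. Between libraries 1 to 5 and 16 to 20 the median of the 6 genes was 0.70. Of 5 macrophage genes, 3 were lower at an unadjusted p under 0.05 over all 20 muscles (9.21% of all genes) and 3 within libraries 6 to 15 (4.92%). The sum of these 5 genes was 31.5 to 98.5 CPM in Control and 24.9 to 81.7 in Secretome. Macrophage genes were not alone in this. Of 6 white adipocyte genes, 1 was lower over all 20 muscles and 2 within libraries 6 to 15. Their medians were -0.62 and -0.47, with 0 positive in each. Of 5 endothelial genes, 1 was lower in each comparison. Of 5 fibroblast genes, 1 was lower over all 20 muscles, and within libraries 6 to 15, 1 was higher and 0 lower. The part of fibre type and of other cells in the member values was not tested.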

How the data were processed

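RNA sequencing of 20 quadriceps muscles (10 Control, 10 Secretome) was analysed from whole-number gene counts that the authors deposited without normalization. Libraries came from total RNA with a directional kit and 150 bp paired reads. The submitters' processing notes name cutadapt 1.16, STAR 2.7.9a, featureCounts 1.6.3, DESeq2 1.34.0 and build GRCm39, with no role for each. Gene symbols, lengths and GC content came from GENCODE M21 (GRCm38), which gave a symbol to 52083 of 55416 genes. The counts carry no coordinates.

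Genes were filtered with filterByExpr, scaled with TMM and tested with edgeR 4.0.16 (R 4.3.3, robust quasi-likelihood F-test, Benjamini-Hochberg adjustment, 5% false discovery rate). Each SE was derived from the fold change and its F statistic. CPM values are TMM-scaled, and per kilobase values were divided by merged exon length. Isoform ratios used counts plus 0.5 and two-sided permutation tests (100000 resamples, or all rearrangements for 5 against 5) in SciPy 1.17.1. The procedure was tested on simulated counts: of 200 genes changed by a factor of 2, 161 were recovered with 3 false calls over all 20 muscles (14471 genes), and 145 with 9 within libraries 6 to 15 (14469 genes).

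The members and lists were chosen with earlier results of these data known. Genes were named by role (core, catalytic and isoform subunits), by the 2 smallest p per complex over all 20 muscles and within libraries 6 to 15, and by the highest and lowest level per complex. Values of 1 member are not reported here, although it stays in the counts and medians. Those of the deviation from the median member, and others named among calls, were picked after their values were seen. The p-values measure the spread between these 20 samples. Alternatives were DESeq2 1.42.0, RLE scaling, no filter, a replicate block, a term for the 3 library ranges, removal of length and GC trends, a 10% false discovery rate and each muscle left out. Added after the data were seen were the outer libraries alone and the loss of Control 2 with Control 3. Paralog pairs with near-identical sequence and overlapping genes may share reads.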

Additional observations from a re-analysis of the deposited data

Results flagged for a closer look

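One result stood apart from its group. Ndufa4l2 in Control 2 had a log2 CPM of 3.11, and its distance to the next Control muscle was 0.556 of the range of the group. This is above the 95% critical value of the Dixon test for 10 samples. In all, 46 groups of 10 were examined (complex scores, isoform ratios and named members), and chance alone gives about 1 such value in 20 groups.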

How the results depend on the processing

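The number of members past 5% was 0 under every alternative run, at a 10% false discovery rate, and for the interaction term; DESeq2 at 10% gave 1. Over all 20 muscles, members higher at an unadjusted p under 0.05 (3) became 0 with a term for the 3 library ranges. They became 1 without Control 2 and Control 3, and 7 between the outer libraries. Over all genes, higher calls were 944 at first and 352, 570 and 958 in these 3 fits. Leaving out 1 muscle gave 1 member higher (without Secretome 6 or Secretome 9) to 4. Over all genes, higher calls were 798 without Secretome 6 and 976 without Secretome 9. Members lower (10) became 5 with length and GC trends removed, 3 with the replicate block, 0 with the range term, 0 without Control 2 and Control 3, and 17 between the outer libraries. Over all genes, lower calls were 1333 at first and 1191, 1011, 483, 662 and 1402 in these 5 fits. Leaving out 1 muscle gave 3 members lower (without Control 2 or Control 3) to 17 (without Control 8), and 6 without Secretome 5. Over all genes, lower calls were 1096 without Control 2, 938 without Control 3, 1535 without Control 8 and 1150 without Secretome 5.

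Within libraries 6 to 15, members higher (0) became 2 without the filter, and members lower (0) became 2 with DESeq2, 1 with RLE scaling, 1 with the trends removed and 3 without the filter. Leaving out 1 muscle gave 0 to 3 higher (3 without Control 10) and 0 to 8 lower (8 without Secretome 3, 5 without Control 8). Over all genes there, higher calls were 727 at first, 1121 without the filter and 1087 without Control 10. Lower calls were 712 at first, 936 with DESeq2, 723 with RLE scaling, 479 with the trends removed and 1340 without the filter. They were 1057 without Secretome 3 and 773 without Control 8. The complex medians moved by less than the spread between muscles under every alternative run, but some changed sign. That spread was larger than the medians themselves, so staying below it does not show that they were stable. Over all 20 muscles, besides the changes in the report, complex III turned to 0.04 between the outer libraries, 0.08 without Control 2 and 0.03 without Secretome 2. Complex IV within libraries 6 to 15 turned to 0.0071 with the trends removed, 0.019 without Control 7 and 0.014 without Secretome 2, and complex V to 0.0059 without Secretome 2.

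Among isoform ratios, Cox8b to Cox8a turned to 0.22 within libraries 6 to 15 and 0.076 without Control 2 and Control 3. Cox4i2 to Cox4i1 turned to 0.11 and 0.067 there, and ran from -0.23 to 0.13 with 1 muscle left out. Atp5g1 to Atp5g3 passed the correction between the outer libraries (-0.62, permutation adjusted p = 0.0397) and ran from -0.40 to -0.29 with 1 muscle left out, passing without Control 6, 9 or 10 or Secretome 2. Cox5a turned to -0.066 with the range term, which takes the treatment difference from libraries 6 to 15. The cause of the other changes was not tested.

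Equal replicate numbers share only a number: the correlation of their deviations ran from -0.240 to 0.221, with 2 of 10 pairs over 0.1 and 0 of 10 Control muscles correlating best with their own number. With the replicate block, 3 members were higher and 3 lower. Depth limits Cox4i2, with at most 25 counts.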
